A study of Mus musculus with 6 samples.

Results

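Dnaaf5 and 7 further genes for the cytoplasmic assembly of axonemal dyneins (Dnaaf1, Dnaaf2, Dnaaf3, Lrrc6, Zmynd10, Spag1 and Ccdc103) were followed through cultured mouse tracheal epithelium. The members were chosen by gene symbol, and all 8 were among the 20483 genes of the count table. The study used droplet-based single-cell RNA-Seq on primary tracheal epithelial cells grown and differentiated at air-liquid interface (ALI), a culture in which basal cells give rise to secretory and multiciliated cells. The cells came from 3 WT/WT and 3 Dnaaf5 MIS/MIS mice, littermates on the C57BL/6 strain at 12 weeks of age, with 1 sample a mouse and no treatment that set the groups apart. MIS denotes the CRISPR-Cas9 missense allele of Dnaaf5, present on both chromosomes in the mutants, which also holds a synonymous change (C1473T, counted from the first coding base) placed to stop recutting. The labels call the mutant group DNAAF5 Mutant, and its libraries carry the animal numbers MT1301, MT1306 and MT1383.

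Axonemal dyneins are the motors of motile cilia. Their heavy, intermediate and light chains are folded and joined in the cytoplasm by chaperones, among them HSP90, the R2TP complex and the chaperonin, together with the dynein axonemal assembly factors, before the finished arms are carried into the cilium. Faulty assembly factors in people or mice can leave cilia that lack dynein arms and beat poorly or not at all. This is the basis of a form of primary ciliary dyskinesia. For Dnaaf5 itself, the paper reports that mice homozygous for a null allele died as embryos. DNAAF5 is a protein of HEAT repeats, LRRC6 and DNAAF1 are leucine-rich repeat proteins, ZMYND10 binds LRRC6, DNAAF2 holds a PIH domain through which it meets chaperones, SPAG1 holds TPR repeats, and CCDC103 helps dynein arms attach to the axoneme.

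The allele itself is shown first because the libraries could not read it. In the GRCm38 annotation Dnaaf5 lies on chromosome 5 (139150223 to 139186510, plus strand), in 13 exons, with codon 498 in exon 7 at chr5:139166087-139166089. The spliced reference sequence around that codon, with the codon in capitals, is printed 5′ to 3′.
Dnaaf5 codon 498: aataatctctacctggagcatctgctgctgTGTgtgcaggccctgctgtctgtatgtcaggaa
The MIS allele carries G1493T, counted from the first coding base, which gives the protein change C498F. The changed base lies 1933 bases from the 3′ end of the 3450-base transcript, whereas the libraries counted molecules by tags at the 3′ end. The Dnaaf5 count therefore gives the amount of message from either allele and does not check the genotype labels.

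RefSeq promoters (GRCm38.p6, 250 bases before to 50 after the start) were found for 5 of the 8 genes. Dnaaf5, Zmynd10 and Dnaaf3 are printed, since these had the largest steps between Multiciliated2 and Multiciliated3, described further on, among the 5 genes with a promoter. Capitals mark GTTGCC or its reverse complement GGCAAC, the core of the motif bound by RFX factors, which switch on cilium genes.
Dnaaf5 (chr5:139149985-139150284, plus strand): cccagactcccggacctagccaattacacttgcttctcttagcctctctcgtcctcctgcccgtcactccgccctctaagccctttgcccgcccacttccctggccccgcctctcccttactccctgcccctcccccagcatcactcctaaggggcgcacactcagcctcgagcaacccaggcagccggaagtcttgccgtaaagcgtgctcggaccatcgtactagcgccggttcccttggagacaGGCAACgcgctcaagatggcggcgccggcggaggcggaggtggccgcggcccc
Zmynd10 (chr9:107547054-107547353, plus strand): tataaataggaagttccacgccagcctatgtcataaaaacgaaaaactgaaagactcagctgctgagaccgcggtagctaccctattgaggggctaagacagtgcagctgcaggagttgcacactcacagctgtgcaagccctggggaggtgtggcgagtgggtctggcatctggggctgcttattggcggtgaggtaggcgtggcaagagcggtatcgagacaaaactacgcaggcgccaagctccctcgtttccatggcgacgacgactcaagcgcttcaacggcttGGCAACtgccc
Dnaaf3 (chr7:4532416-4532715, minus strand): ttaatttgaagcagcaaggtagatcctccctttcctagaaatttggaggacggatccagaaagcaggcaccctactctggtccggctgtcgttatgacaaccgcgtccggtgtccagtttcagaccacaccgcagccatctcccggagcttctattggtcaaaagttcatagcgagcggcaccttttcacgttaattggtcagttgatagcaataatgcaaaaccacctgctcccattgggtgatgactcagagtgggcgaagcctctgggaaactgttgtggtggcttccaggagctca
The letters occurred in the promoters of Dnaaf5, Zmynd10, Dnaaf2 and Ccdc103, with 1 match each, and were not in the window of Dnaaf3. Of all 32851 promoters of this length, 12.5% held them on either strand. The forkhead letters TGTTTAC were in none of the 5 windows on either strand and in 3.65% of all promoters. These matches describe the letters alone.

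The tables held 23871 cells in 16 clusters named by the authors, with between 2673 and 6710 cells and between 100961835 and 153326568 unique molecular identifiers (UMIs) a mouse. Multiciliated clusters 1 to 4 held 1108, 857, 2712 and 146 cells, with at least 55 cells of each of the first 3 in every mouse. The 5 cilium markers checked (Foxj1, Tppp3, Rsph1, Ccdc153 and Dynlrb2) had a mean summed level of 1356, 3006, 5838 and 10065 counts per 1000000 UMIs (CPM) in Multiciliated1 to Multiciliated4, against a mean of at most 79.5 CPM in any other cluster. Early markers of the multiciliated lineage (Mcidas, Gmnc, Ccno, Deup1, Foxn4, Cdc20b and Myb) reached 1524 CPM in Multiciliated2 and 131 CPM in Multiciliated3. The cycling markers Mki67 and Top2a, which are also used when centrioles multiply, stood at 185 and 2.72 CPM in the same clusters. Multiciliated1 also held secretory markers, including Scgb1a1 and Scgb3a1, at 37017 CPM, close to the 31504 CPM of Secretory2, and its name rests on cilium markers at lower levels than in the other multiciliated clusters. Multiciliated4 was small and shallow, with a median of 10197 UMIs a cell and a median mitochondrial share of 1.29%, against 26360 UMIs and 8.51% in Multiciliated3. Of 23804 distinct barcodes, 67 occurred in more than 1 mouse.

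Each level below is a CPM value from UMIs summed over the cells of a cluster in a mouse, and the mean is over mice with at least 10 cells of that cluster. All 8 genes had their highest mean in a multiciliated cluster, as did 37.5% of the 15775 genes with at least 100 UMIs. The multiciliated clusters gave 19.96% of all UMIs. They gave 97.9% of the UMIs of Zmynd10, 97.8% of those of Dnaaf1, 96.9% of those of Lrrc6, 91.9% of those of Dnaaf3 and 88.4% of those of Ccdc103. For these 5 genes the share was over 80%, which held for 5.58% of all genes with at least 100 UMIs. The share was 69.6% for Dnaaf2, 65.8% for Dnaaf5 and 57.6% for Spag1, so these 3 genes left a larger part of their message in other cell types.

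**Figure D1:**
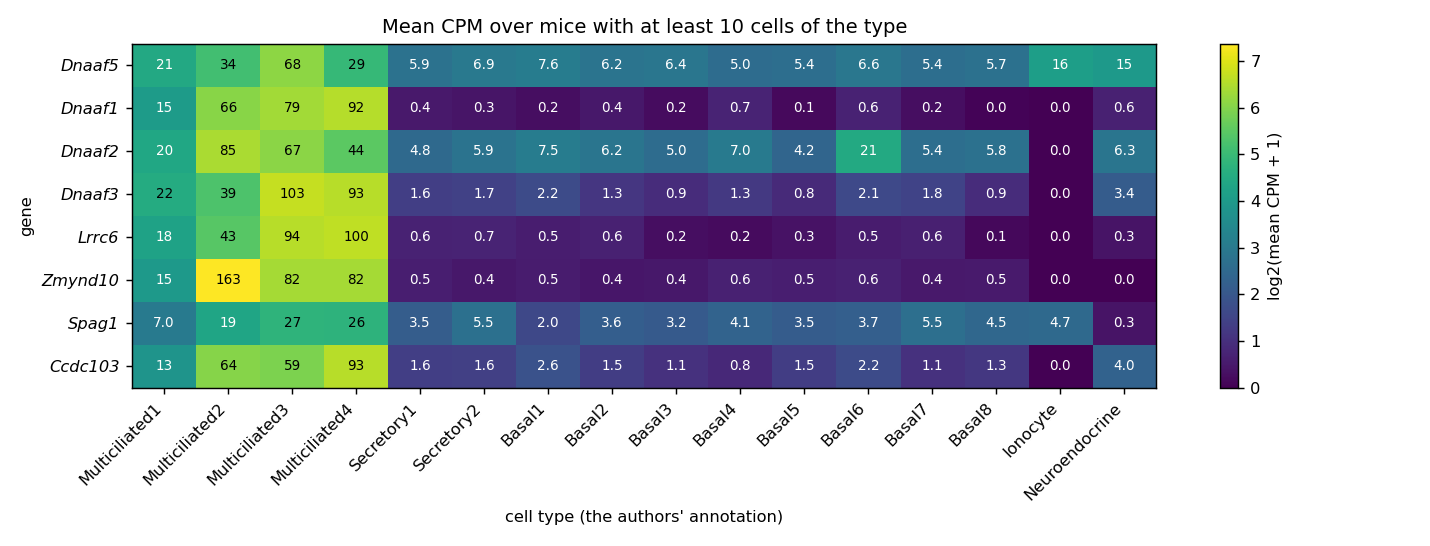
Mean CPM of the 8 assembly factors (rows) in the 16 cell types (columns), over mice with at least 10 cells of the type. The colour is log2(mean CPM + 1). Dnaaf5, Dnaaf2 and Spag1 kept means of 2.01 to 7.60 CPM in secretory and basal clusters, apart from Dnaaf2 in Basal6 (21.1 CPM). Dnaaf1, Lrrc6 and Zmynd10 stood below 1 CPM in these clusters.

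Dnaaf5 was highest in Multiciliated3, at 68.4 ± 6.09 CPM (SD, n = 6 mice). Multiciliated2 followed at 34.2 ± 5.32, Multiciliated4 at 29.3 ± 4.44 (n = 5) and Multiciliated1 at 20.6 ± 4.52. The lowest mouse in Multiciliated3 (58.6 CPM) lay above the highest in Multiciliated2 (42.0 CPM). Multiciliated2 overlapped with Multiciliated4, and Multiciliated4 with Multiciliated1. The ionocyte value of 16.3 CPM came from 1 mouse, and the neuroendocrine mean of 14.9 ± 10.2 CPM came from 3 mice whose values ran from 6.24 to 26.2 CPM. The 10 secretory and basal clusters lay between 5.05 CPM in Basal4 and 7.60 CPM in Basal1, and each overlapped with its neighbours in the order. The lowest mouse of Multiciliated1 (13.8 CPM) was above the highest mouse of Basal1 (9.82 CPM).

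Dnaaf2 and Spag1 shared this broad background. Dnaaf2 stood at 85.0 ± 6.64 CPM in Multiciliated2, 66.6 ± 3.07 in Multiciliated3, 44.3 ± 10.3 in Multiciliated4 and 19.96 ± 3.02 in Multiciliated1, with no overlap between the first 3. Basal6 stood apart from the other basal clusters at 21.1 ± 1.48 CPM, with a range of 19.01 to 23.1 CPM that overlapped with Multiciliated1, whereas Basal1 came next at 7.46 ± 1.29 CPM. Basal6 was also the cluster with the most Mki67 and Top2a (622 CPM summed), and the part of cycling in the level was not tested. Spag1 was at 26.7 ± 2.28 CPM in Multiciliated3, 25.9 ± 8.53 in Multiciliated4, 19.02 ± 2.07 in Multiciliated2 and 6.99 ± 2.13 in Multiciliated1. Its range in Multiciliated1 (3.02 to 8.90 CPM) overlapped with that in Secretory2 (4.34 to 6.27 CPM), so Spag1 did not set Multiciliated1 apart from secretory cells.

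The other 5 genes were low outside the multiciliated clusters, with means of at most 3.97 CPM. Zmynd10 reached 163 ± 28.6 CPM in Multiciliated2, 81.7 ± 18.8 in Multiciliated4, 81.5 ± 7.84 in Multiciliated3 and 14.7 ± 3.67 in Multiciliated1, against at most 0.596 CPM outside the multiciliated clusters (Basal6). Dnaaf1 was at 92.1 ± 21.6 CPM in Multiciliated4, 79.4 ± 4.98 in Multiciliated3 and 65.5 ± 11.4 in Multiciliated2, and these ranges overlapped. It was at 15.3 ± 3.72 CPM in Multiciliated1, and its highest mean outside the multiciliated clusters was 0.667 CPM in Basal4. Lrrc6 was at 99.99 ± 8.90 CPM in Multiciliated4 and 94.4 ± 4.10 in Multiciliated3, which overlapped, and at 42.7 ± 5.31 in Multiciliated2, which lay below both. Dnaaf3 was at 103 ± 8.94 CPM in Multiciliated3 and 93.2 ± 11.8 in Multiciliated4, which overlapped, and at 38.9 ± 7.97 in Multiciliated2. Ccdc103 was highest in Multiciliated4 at 93.5 ± 19.4 CPM, with 63.6 ± 5.88 in Multiciliated2 and 59.2 ± 3.99 in Multiciliated3. Outside the multiciliated clusters Dnaaf3 and Ccdc103 peaked in neuroendocrine cells at 3.38 and 3.97 CPM, from 6 and 7 UMIs in all. In Basal1 they stood at 2.22 and 2.64 CPM, from 163 and 192 UMIs, against 2.01 CPM for Spag1.

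Counted as cells with at least 1 UMI, Dnaaf5 was found in 82.6% ± 5.82 of Multiciliated3 cells and in 17.1% ± 4.05 of basal cells (SD over 6 mice), at median depths of 26360 and 26312 UMIs. Dnaaf1 was found in 81.8% ± 4.14 of Multiciliated3 cells and in 0.851% ± 0.275 of basal cells in the same libraries. After each cell was thinned to 5000 UMIs the shares were 28.3% ± 3.55 and 3.14% ± 0.821 for Dnaaf5, and 31.3% ± 2.74 and 0.172% ± 0.149 for Dnaaf1. The basal share of Dnaaf5 was well above that of Dnaaf1, whose share in Multiciliated3 was alike. This was not particular to Dnaaf5. Dnaaf2 was found in 81.7% ± 5.80 of Multiciliated3 cells and 18.2% ± 2.55 of basal cells, and after thinning in 27.6% ± 3.02 and 3.57% ± 0.325. Zmynd10 was found in 79.9% ± 4.51 of Multiciliated2 cells, 79.4% ± 3.52 of Multiciliated3 cells and 1.27% ± 0.278 of basal cells, and after thinning in 43.9% ± 10.46, 30.9% ± 2.40 and 0.191% ± 0.0947.

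Likeness to Dnaaf5 was measured by Pearson's r of log2(CPM + 1) over the 16 cell types, with cells pooled over mice. Among 11565 other genes that reached 10 CPM in a cluster of at least 50 cells, the 5 most like Dnaaf5 were Ift140 (r = 0.980), Dnah3 (0.979), Ccdc114 (0.977), Lekr1 (0.973) and Casc1 (0.972). IFT140 is a subunit of intraflagellar transport, DNAH3 is an inner arm heavy chain, and CCDC114 belongs to the complex that docks outer arms. Among the 7 other members the most like Dnaaf5 was Zmynd10 (r = 0.910, rank 188) and the least like was Spag1 (r = 0.728, rank 1401). Within the 8 genes the closest pair was Dnaaf1 with Lrrc6 (r = 0.995), and Dnaaf3 with Lrrc6 stood at 0.992. Each cell type had the same weight, also the ionocytes with 28 cells and 14 UMIs of Dnaaf5. These r values describe cell types that share libraries, so no test was made.

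Multiciliated2 and Multiciliated3 were set side by side within each mouse to describe timing, since the early markers were concentrated in Multiciliated2. The clusters were drawn from these same cells, so the step is given as a description, as a log2 ratio of CPM in Multiciliated3 over Multiciliated2, with its SD over 6 mice. Dnaaf3, Lrrc6 and Dnaaf5 were higher in Multiciliated3 by ratios of 2.70, 2.23 and 2.01. Spag1 and Dnaaf1 were higher by 1.40 and 1.22. Zmynd10 and Dnaaf2 were lower, at ratios of 0.503 and 0.784, and Ccdc103 was lower in 4 mice and higher in 2. Thus 5 of the 8 genes were higher in each of 6 mice and 2 were lower in each of 6. Of 13238 genes with at least 100 UMIs in both clusters together, 6043 were higher and 3388 were lower in each mouse. None of the 8 passed 2-fold in each mouse, whereas 12.8% of these 13238 genes were over 2-fold higher in each mouse and 7.26% were over 2-fold lower. The median of the 8 was 0.39 on the log2 scale, and the median of the 12570 genes with UMIs in both clusters of each mouse was 0.24.

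Dnaaf5 went from 28.0, 31.7 and 36.9 CPM in WT1, WT2 and WT3 to 64.4, 58.6 and 72.7 CPM. In MT1301, MT1306 and MT1383 it went from 42.0, 29.6 and 37.0 CPM to 75.4, 68.6 and 70.8 CPM. No Multiciliated2 value reached the lowest Multiciliated3 value, and the mean log2 ratio was 1.01 ± 0.16. Dnaaf3 had a mean log2 ratio of 1.43 ± 0.31, with Multiciliated2 values from 26.7 to 51.1 CPM and Multiciliated3 values from 93.7 to 116 CPM. Lrrc6, the leucine-rich partner of ZMYND10, stood at 1.15 ± 0.17, from between 33.8 and 50.3 CPM to between 89.5 and 99.8 CPM.

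Zmynd10 moved the other way, from 145, 142 and 179 CPM in the Multiciliated2 cells of WT1, WT2 and WT3 to 72.4, 87.6 and 72.6 CPM in Multiciliated3. In MT1301, MT1306 and MT1383 it went from 140, 160 and 213 CPM to 87.2, 79.3 and 89.9 CPM. The lowest Multiciliated2 value was above the highest Multiciliated3 value, and the mean log2 ratio was -0.99 ± 0.26. Lrrc6 and Zmynd10, whose products bind each other, thus differed in direction in each of the 6 mice. Dnaaf2 had a ratio of -0.35 ± 0.13, with ranges of 75.7 to 91.9 and 61.8 to 70.4 CPM that did not overlap. Dnaaf1 (0.29 ± 0.15), Spag1 (0.49 ± 0.10) and Ccdc103 (-0.10 ± 0.14) made smaller steps.

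With cells thinned to 5000 UMIs, 3 genes (Dnaaf5, Dnaaf3 and Lrrc6) were higher in each mouse, and Dnaaf1 and Spag1 then had a ratio below 0 in at least 1 mouse. Zmynd10 was still lower in each of 6 mice, Dnaaf2 was lower in all but WT2, and the mean for Ccdc103 was 0.05. Dnaaf3 and Ccdc103 share annotation on the same strand with Tnni3 and Fam187a, and Dnaaf2 with a pair of readthrough models, so their counts are less certain. Tnni3 itself was at 4.87 and 10.96 CPM in Multiciliated2 and Multiciliated3. The median cell held 38781 UMIs in Multiciliated2 and 26360 in Multiciliated3, and summed secretory markers stood at 10436 and 5904 CPM. The part of depth, of secretory message and of cycling in the step was not tested.

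**Figure D2:**
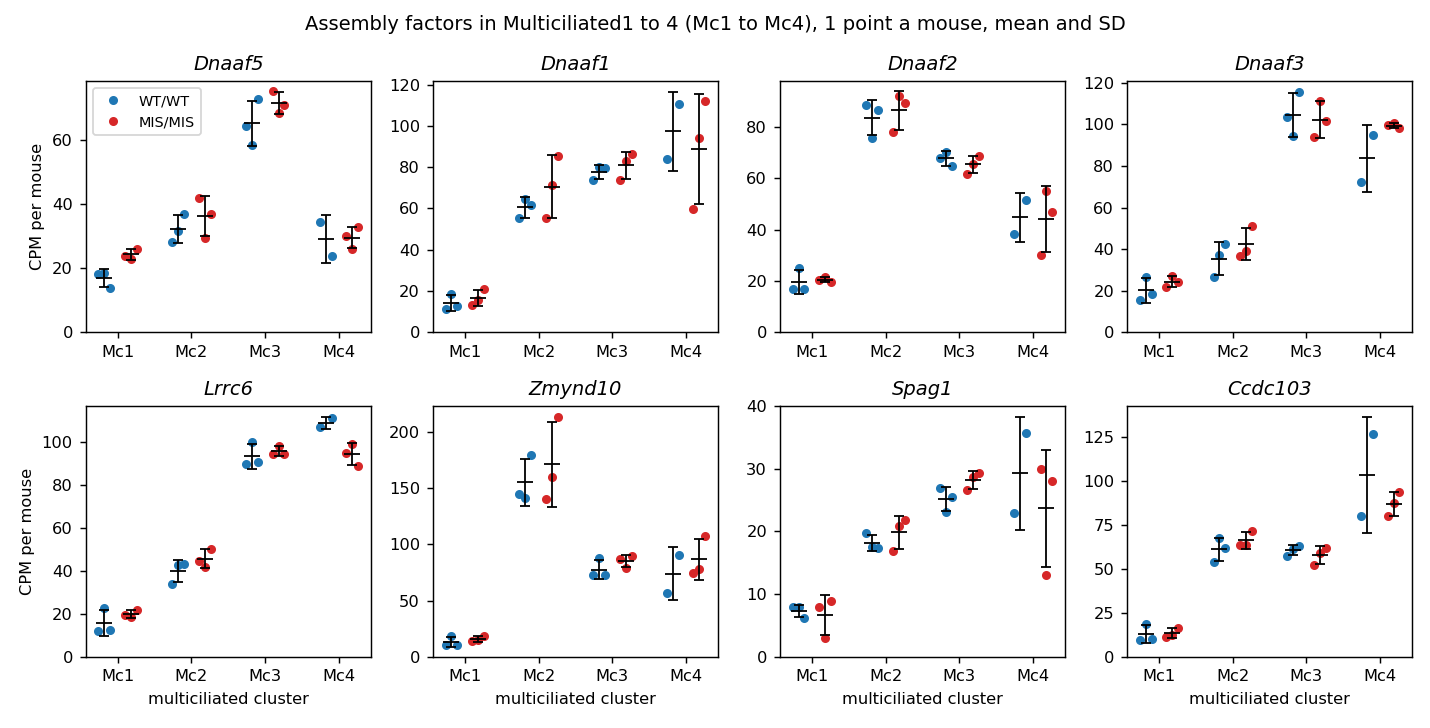
CPM of each assembly factor (1 panel a gene) in Multiciliated1 to Multiciliated4, with 1 point for each mouse with at least 10 cells, WT/WT in blue and MIS/MIS in red, and a black mean with SD. Each y axis starts at 0. Dnaaf5 peaked in Multiciliated3 and Zmynd10 in Multiciliated2, and the genotypes overlapped in Multiciliated2 and Multiciliated3 for all 8 genes.

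Lists of the factors' partners and clients were placed on the same scale. The 18 dynein arm subunits in the table (of 19 listed) were all higher in Multiciliated3 in each of 6 mice, with a median log2 ratio of 1.40, and 10 of them were over 2-fold higher in each mouse. The heavy chains Dnah9 (2.75 ± 0.29) and Dnah6 (2.69 ± 0.22) had the largest steps, and Dnali1 (0.56 ± 0.18), an inner arm light intermediate chain, and Dnah7b (0.54 ± 0.23) the smallest. Dnah7b has close copies, Dnah7a (1.81) and Dnah7c (2.68), between which reads could be split. Dnaaf5, Dnaaf3 and Lrrc6 therefore had mean steps inside the range of the subunits, and the other 5 members had mean steps below all of them. For Spag1 (0.49 ± 0.10) the gap to Dnah7b was smaller than the SD of Dnah7b. In WT3 Spag1 (0.55) was above Dnah7b (0.15), and in the other mice it was below.

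Of 10 chaperone genes, 7 were lower in Multiciliated3 in each of 6 mice and 1 was higher, with a median of -0.61. Tcp1, a chaperonin subunit, had a log2 ratio of -1.31 ± 0.12 and was over 2-fold lower in each mouse. Ruvbl2, an ATPase of R2TP, followed at -1.16 ± 0.17. Hsp90ab1 was the gene higher in each mouse (0.35 ± 0.05), and Rpap3, the R2TP subunit that recruits HSP90, was next at 0.06 ± 0.11. Among the 10 further assembly factors in the table (of 11 listed), 7 were higher and 3 were lower in each mouse, with a median of 0.68. The largest steps up were those of 4930402H24Rik, now Dnaaf9 (1.71 ± 0.15), and Ttc12 (1.18 ± 0.11), and both passed 2-fold in each mouse. Pih1d1, the R2TP subunit that holds a PIH domain, was over 2-fold lower in each mouse (-1.29 ± 0.12), and Wdr92, now Dnaaf10 and a partner of R2TP, was at -0.96 ± 0.12. Zmynd10 and Dnaaf2 thus changed in the direction shown by most chaperones. Dnaaf5, like Dnaaf3, Lrrc6, Spag1 and Dnaaf1, changed in that shown by the subunits, which was also the more common direction among all genes.

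**Figure D3:**
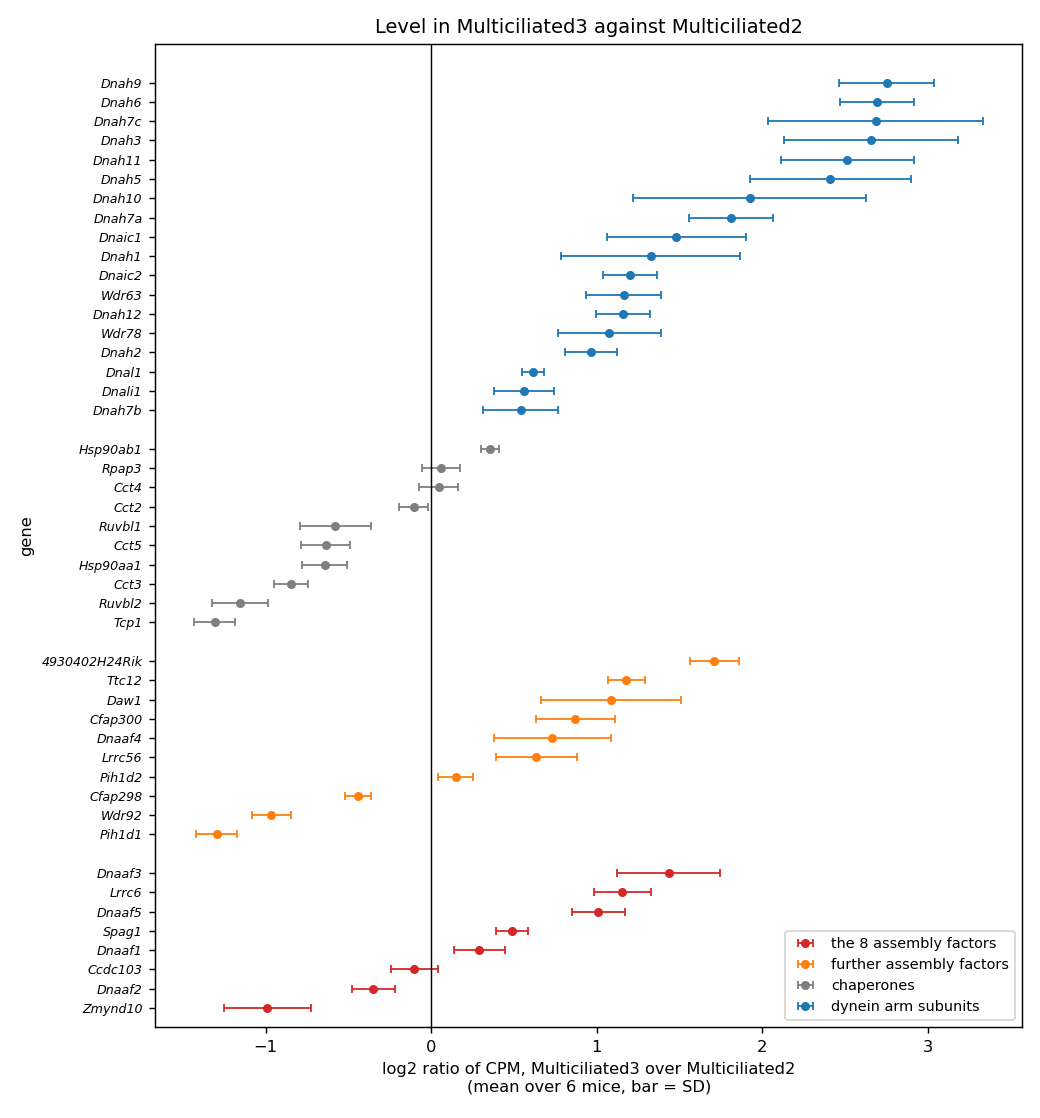
Log2 ratio of CPM in Multiciliated3 over Multiciliated2 for each listed gene, as the mean over 6 mice with SD bars, grouped by list. Dynein arm subunits (blue) lie to the right of 0, most chaperones (grey) to the left, and the 8 assembly factors (red) run from Zmynd10 at -0.99 to Dnaaf3 at 1.43.

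The comparison of genotypes asked whether the missense allele went with a different amount of message for Dnaaf5 or its fellow assembly factors. None of the 8 genes passed an adjusted p of 0.05 in limma voom in any multiciliated cluster, and before adjustment 1 of 8 was under 0.05 in Multiciliated1, 0 of 8 in Multiciliated2 and in Multiciliated3, and 0 of 6 in Multiciliated4. Before adjustment 3.97%, 3.49%, 4.5% and 5.35% of all genes tested in these clusters were under 0.05. The genes called were 0.00874% of 11446 genes tested in Multiciliated1, 0.00857% of 11674 in Multiciliated2, 0.0229% of 13096 in Multiciliated3 and 0.247% of 3645 in Multiciliated4. None of the listed partners and dynein arm subunits passed either. Few genes of any kind passed, and the intervals given below show what size of difference these 6 mice leave possible.

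In Multiciliated3, the cluster with the most Dnaaf5, the WT1, WT2 and WT3 values were 64.4, 58.6 and 72.7 CPM. Those of MT1301, MT1306 and MT1383 were 75.4, 68.6 and 70.8 CPM, so the genotypes overlapped. The fitted log2 fold change of MIS/MIS over WT/WT was 0.13 (SE 0.09, 95% confidence interval -0.07 to 0.33, adjusted p = 0.978 in limma voom). A fall in Dnaaf5 message of more than 0.07 on the log2 scale lay outside this interval. In Multiciliated2 the fold change was 0.18 (SE 0.15, interval -0.16 to 0.53). In Multiciliated4 Dnaaf5 had too few counts to test, with 44 UMIs over 5 mice.

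In Multiciliated1 Dnaaf5 was at 18.3, 18.6 and 13.8 CPM in WT1, WT2 and WT3 and at 23.8, 22.9 and 26.1 CPM in MT1301, MT1306 and MT1383. Each mutant value lay above each WT value, as was so for 5.53% of genes in this cluster. The log2 fold change was 0.53 (SE 0.15, interval 0.20 to 0.86), and the adjusted p in limma voom was 0.994, so it did not pass. Its unadjusted value was 0.00522. It was the only member with no overlap in Multiciliated1, and there was none in Multiciliated2 or Multiciliated3, where 5.04% and 5.05% of genes had each mutant mouse above each WT mouse. Summed cilium markers in Multiciliated1 ran from 943 to 1760 CPM in WT/WT and from 1430 to 1506 CPM in MIS/MIS, and secretory markers from 28819 to 43992 and from 28688 to 39009 CPM. MT1383 gave 604 of the 1108 cells of this cluster, and without it the fold change was 0.48.

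The other 7 genes gave log2 fold changes between -0.07 (Ccdc103) and 0.18 (Spag1) in Multiciliated3. Spag1, whose product is a known partner of DNAAF5, was at 26.8, 23.0 and 25.4 CPM in the WT/WT mice and at 26.6, 28.7 and 29.3 CPM in the MIS/MIS mice. Its interval ran from -0.04 to 0.39, and Zmynd10 followed at 0.15 (-0.06 to 0.35). The intervals of Dnaaf1 (-0.12 to 0.23), Dnaaf2 (-0.21 to 0.12), Lrrc6 (-0.13 to 0.20), Dnaaf3 (-0.25 to 0.19) and Ccdc103 (-0.26 to 0.12) all held 0. The median of the 8 was 0.05 against 0.00 for all genes tested, with 5 above 0 and 3 below. Of all genes tested, 49.2% were above 0.

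In Multiciliated2 all 8 estimates were above 0, from 0.04 (Dnaaf2) to 0.27 (Dnaaf3), as were 48.8% of all genes tested. The median of the 8 was 0.16 against 0.00 for all genes tested. Each interval of the 8 held 0. In Multiciliated1 7 of 8 were above 0, as were 51.8% of all genes tested, with a median of 0.27 against 0.01. Lrrc6 stood next to Dnaaf5 there at 0.40 (interval -0.07 to 0.87). Spag1 was least certain there, at -0.04 (-0.80 to 0.71), with 12 UMIs in MT1306. Estimates above 0 were not particular to the 8 genes. Of the dynein arm subunits tested, 17 of 17 were above 0 in Multiciliated1, with a median of 0.25. In Multiciliated2 and Multiciliated3 this held for 14 of 18 and 17 of 18 subunits. For the further assembly factors it held for 7 of 9, 9 of 10 and 6 of 10 in Multiciliated1 to Multiciliated3. For the chaperones it held for 7 of 10, 5 of 10 and 5 of 10. All these genes were measured in the same mice, so their signs are not independent of each other.

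In Multiciliated4 WT2 had 6 cells and was left out of the fit, which left 2 WT/WT and 3 MIS/MIS mice. The 6 genes tested there ran from -0.18 (Ccdc103) to 0.29 (Dnaaf3), with a median of 0.03 against 0.01. Dnaaf3 was at 72.4 and 94.98 CPM in WT1 and WT3 and at 99.7, 101 and 98.1 CPM in MT1301, MT1306 and MT1383, but WT2 stood at 134 CPM from 11 UMIs. Lrrc6 was at 107 and 111 CPM in WT1 and WT3, above 94.7, 99.0 and 88.8 CPM in the mutants, and WT2 stood at 85.6 CPM from 7 UMIs. With WT2 counted, the genotypes overlapped for both genes.

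**Figure D4:**
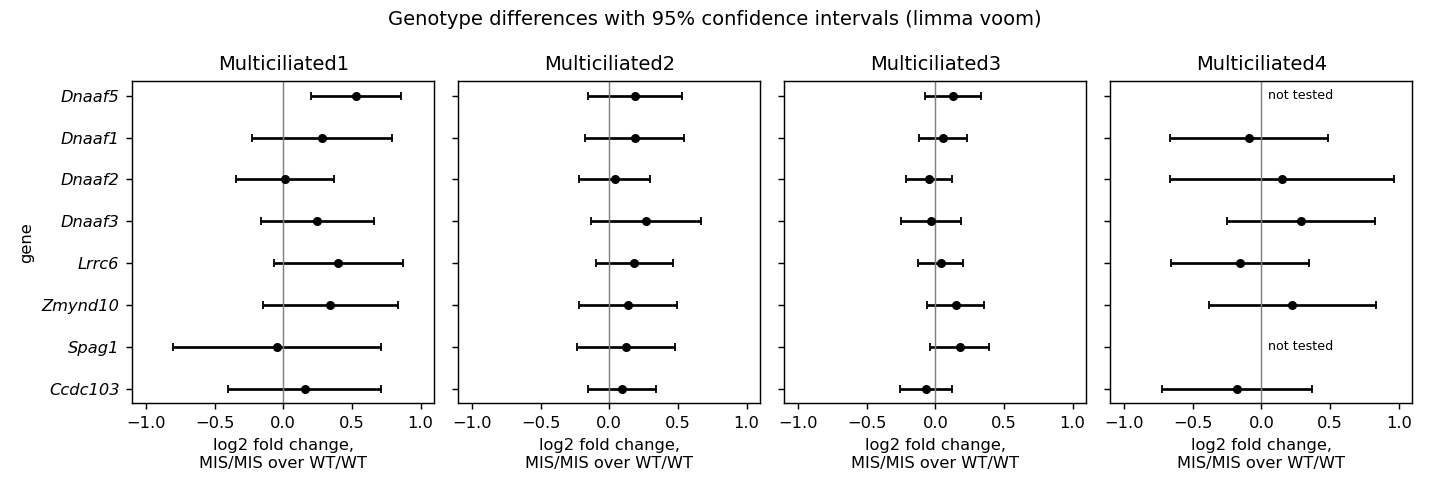
Log2 fold change of MIS/MIS over WT/WT for each assembly factor in Multiciliated1 to Multiciliated4, with 95% confidence intervals from limma voom. Dnaaf5 in Multiciliated1 (0.53, interval 0.20 to 0.86) is the only interval that does not hold 0, and Dnaaf5 and Spag1 were not tested in Multiciliated4.

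The genotypes were last compared for the step from Multiciliated2 to Multiciliated3, with each mouse as a block. The difference of the Dnaaf5 step, MIS/MIS minus WT/WT, was -0.04 on the log2 scale (SE 0.14, interval -0.35 to 0.28, adjusted p = 1.00 in limma voom). The step of Dnaaf5 was 1.02 in WT/WT and 1.00 in MIS/MIS on average. The widest estimate was that of Dnaaf3 (-0.31, interval -0.71 to 0.09), and Zmynd10 was at -0.01 (-0.41 to 0.38). None of the 8 passed or was under 0.05 before adjustment, and 0% of 13237 genes did, whereas 560 genes (4.23%) had a p under 0.05 before adjustment.

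Outside the multiciliated clusters Dnaaf5 was at 6.27, 5.27 and 6.25 CPM in the pooled basal cells of WT1, WT2 and WT3 and at 7.40, 6.01 and 6.60 CPM in MT1301, MT1306 and MT1383. In secretory cells the values were 6.37, 5.48 and 6.21 CPM and 7.64, 6.41 and 5.48 CPM. The genotypes overlapped in both. Dnaaf5 and Lrrc6 had a higher mean in MIS/MIS in 12 of the 15 cell types that could be compared. For Dnaaf1, Dnaaf3 and Zmynd10 this held in 11, for Ccdc103 in 8, for Dnaaf2 in 6 and for Spag1 in 3. Some of these directions rested on very few UMIs, such as 2 of Dnaaf1 and 3 of Lrrc6 in all Basal8 cells. In neuroendocrine cells MT1383 was the only mutant mouse with at least 10 cells. These cell types come from the same 6 mice, and the share over all genes was not counted.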

How the data were processed

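The authors prepared 10x Genomics 3′ libraries, processed the reads with Cell Ranger (7.1.0 and the mm10 genome in the submitters' notes, while the paper's methods name an earlier version), filtered and clustered cells in Seurat, and deposited 1 table of UMI counts per gene and cell with 1 table of cell types. The tables separate values by a mistyped tab and were read with that separator. All values were whole numbers. Of 23871 cells, 23216 met the filters stated in the methods (2500 to 7500 genes, mitochondrial share up to 25%), and no doublet caller was run here. UMIs were summed per mouse and cell type. Because the separator kept the table from being recorded as counts, the planned count model was replaced by its stated substitute, limma 3.58.1 in R 4.3.3, with voom weights, TMM factors (trims 0.3 and 0.05) and genes kept at 10 counts in a library of median size in as many mice as the smaller group, and 15 in total. Adjusted p-values are Benjamini-Hochberg values over all genes tested, with a threshold of 0.05. The test is two-sided. The code was tested on simulated data. Each library is 1 mouse, so p-values reflect the spread between mice. SDs are over mice, levels use UMIs without length scaling because tags lie at the 3′ end, and genes are therefore compared with themselves across cells. A lower CPM can also follow from other genes taking more of the UMIs. Positions come from GENCODE M21 (GRCm38), which located all 8 genes. The 8 genes and the lists of partners were chosen with earlier results of these data known. The named genes are the 8 members, list genes past the threshold between genotypes, the 2 largest and 2 smallest steps of each list, and the 5 genes most like Dnaaf5. Of 48 symbols listed, 46 were in the table.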

Additional observations from a re-analysis of the deposited data

How the results depend on the processing

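No paired analysis was possible because MIS/MIS cells are named by numbers that no sample title holds. The count tests of DESeq2 and edgeR, planned as alternatives, were not run because the table was not recorded as counts. Thinned cells left too few Dnaaf5 counts to test in Multiciliated1. Upper-quartile normalization and limma-trend were added after seeing the data. No member passed the threshold in any of 368 alternative fits (lowest adjusted p 0.286), and 332 of them kept their direction. Genes called moved without the low-count filter from 0 to 8 for the genotype difference of the step and from 9 to 0 in Multiciliated4, and with thinned cells to 10 for the step, 0 in Multiciliated1, 2 in Multiciliated2 and 5 in Multiciliated3. With a mouse left out, counts ran from 0 (without WT1) to 2 (without MT1301) in Multiciliated2, and from 8 to 22 (without MT1301, 14 without WT3) in Multiciliated4. With thinned cells, 3 members were higher in Multiciliated3 in each mouse. The causes were not tested.

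None of the estimates that changed sign had passed the threshold under either setting. Leaving out WT1 or WT3 in Multiciliated4 left 1 WT/WT mouse, which was taken to vary like the mutants. For the genotype difference of the step, Dnaaf5 gave 0.041 without the filter and 0.069 with thinned cells, Zmynd10 0.053 without the filter and 0.024 by limma-trend, Spag1 -0.078 and Ccdc103 0.052 with thinned cells. Thinned cells also gave -0.029 for Spag1 in Multiciliated2 and, in Multiciliated3, 0.015 for Dnaaf2, 0.029 for Dnaaf3, -0.045 for Zmynd10 and 0.048 for Ccdc103. Limma-trend gave -0.023 for Dnaaf2 in Multiciliated4. With each mouse left out in turn, estimates that changed sign ranged for the step from -0.10 to 0.028 for Dnaaf5, from -0.14 to 0.066 for Dnaaf2, from -0.16 to 0.22 for Zmynd10 and from -0.027 to 0.14 for Spag1. In Multiciliated1 they ranged from -0.082 to 0.18 for Dnaaf2, from -0.48 to 0.18 for Spag1 and from -0.10 to 0.44 for Ccdc103. In Multiciliated2 they ranged from -0.059 to 0.11 for Dnaaf2 and from -0.048 to 0.28 for Zmynd10. In Multiciliated3 they ranged from -0.10 to 0.038 for Dnaaf3. In Multiciliated4 they ranged from -0.26 to 0.067 for Dnaaf1, from -0.18 to 0.33 for Dnaaf2, from -0.070 to 0.51 for Zmynd10 and from -0.47 to 0.11 for Ccdc103. Leaving out WT1 or MT1306 moved the highest mean of Spag1 from Multiciliated3 to Multiciliated4, and the other 7 members kept their highest cell type.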

Other observations

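The HSP90 genes, chosen here after their values were seen, were spread over the cell types in different ways. The multiciliated clusters gave 55.2% of the UMIs of Hsp90aa1, which was highest in Multiciliated2 at 6634 CPM, and 17.5% of those of Hsp90ab1, which was highest in Basal1 at 2474 CPM. Among the further assembly factors, also named after the fact, Pih1d2 had 88.9% of its UMIs in the multiciliated clusters and Pih1d1, from the same PIH family, had 23.0%. 4930402H24Rik was present in neuroendocrine cells at 56.9 CPM, against 120 CPM in Multiciliated3.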
